A study of Mus musculus with 4 samples.

Results

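Genes of the hyaluronan matrix (6 of the 32285 genes in the deposited tables) were followed by their symbols through spatial transcriptomes of young and aged mouse ovaries. They are the hyaluronan synthase gene Has2, the inter-alpha-trypsin inhibitor heavy chain genes Itih2 and Itih5, Tnfaip6, the proteoglycan gene Vcan and the receptor gene Cd44. The genes were chosen with the age difference of these sections already known, so every age value given for them is a description without a test. The animals were naturally aged female CD-1 mice, an outbred stock, and the labels name no engineered allele and no treatment. Young animals were 3 to 4 months old and aged animals 15 to 16 months old. Each of 4 capture areas carried 1 young and 1 aged frozen ovary section, which gave 4 young and 4 aged sections, numbered here by capture area.

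Hyaluronan is a long unbranched sugar polymer that synthases extrude from the plasma membrane. Around the oocyte of a preovulatory follicle, Has2 makes it, and the product of Tnfaip6 transfers heavy chains of the inter-alpha-inhibitor family onto it, which stabilises the expanding cumulus matrix. Versican, the product of Vcan, binds hyaluronan through its globular end, and CD44 is a cell surface receptor for it.

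The heavy chain genes Itih2 and Itih5 lie head to head on chromosome 2 (mm10, GENCODE M21), Itih2 on the minus strand at chr2:10094593-10131396 and Itih5 on the plus strand at chr2:10153571-10256529. The stretch between them is 22174 bases long and holds 0 annotated genes. Tnfaip6 (chr2:52038009-52056686, plus strand) and Cd44 (chr2:102811141-102901665, minus strand) are on the same chromosome. Vcan lies at chr13:89655312-89742509 and Has2 at chr15:56665627-56694539, both on the minus strand. RefSeq promoter sequences (GRCm38.p6) matched 5 of the 6 genes, all but Has2. The 250 bases upstream of the RefSeq start are shown for the heavy chain pair, which share a locus and were both lower in aged sections, and for Vcan, the other member that was higher in granulosa-rich spots. Each is given 5′ to 3′ on the strand of its gene, and capitals mark a match to the AP-1 motif. The RefSeq start of Itih2 differs from its GENCODE start. Its window therefore lies inside the GENCODE gene, not in the stretch between the heavy chain genes.
Itih2, chr2:10130684-10130933, minus strand: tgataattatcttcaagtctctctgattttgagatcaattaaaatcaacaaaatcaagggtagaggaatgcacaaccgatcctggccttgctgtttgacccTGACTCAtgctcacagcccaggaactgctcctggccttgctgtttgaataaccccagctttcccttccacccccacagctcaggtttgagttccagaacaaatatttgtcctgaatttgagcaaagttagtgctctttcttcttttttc
Itih5, chr2:10153293-10153542, plus strand: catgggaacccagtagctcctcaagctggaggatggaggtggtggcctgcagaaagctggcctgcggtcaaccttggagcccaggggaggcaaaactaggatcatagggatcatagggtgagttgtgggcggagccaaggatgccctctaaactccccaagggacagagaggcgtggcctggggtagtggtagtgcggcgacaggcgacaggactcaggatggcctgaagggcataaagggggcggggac
Vcan, chr13:89742513-89742762, minus strand: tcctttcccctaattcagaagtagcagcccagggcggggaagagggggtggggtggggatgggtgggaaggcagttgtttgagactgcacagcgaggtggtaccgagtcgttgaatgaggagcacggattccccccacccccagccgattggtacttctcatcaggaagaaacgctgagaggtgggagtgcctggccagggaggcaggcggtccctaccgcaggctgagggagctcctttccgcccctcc
A set of 5 motifs was searched on both strands of 300-base windows, from 250 bases before to 50 bases after the start, in 32851 promoters. The AP-1 motif TGANTCA was in 7.81% of them, the TATA box TATAAA in 13.6%, the cyclic AMP response element TGACGTCA in 1.79%, the nuclear receptor motif AAGGTCA in 4.72% and the forkhead motif GTAAACA in 3.65%. Among the members, the only matches were AP-1 motifs, in Itih2 (first base 149 bases upstream of the start) and in Tnfaip6 (142 bases upstream). A match or its lack describes these letters only.

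The tables hold UMI counts (unique molecules) for 4191 spots over tissue. A spot is a small disc of tissue that can hold several cells of different types. Sections held 257 to 762 spots and 2777948 to 21619232 UMIs. The median depth was 14988.5 to 28120 UMIs per spot in young sections and 8779 to 14927.5 in aged sections, and the mitochondrial share of UMIs was 0.597 to 1.88% and 1.31 to 2.96%. Capture areas shared 1358 of 2204 distinct barcodes, which are positions on the array and not cells. In its oocyte content, capture area 3 went opposite to the rest. Spots with at least 10 UMIs of oocyte markers made up 0.738% of young section 3 and 12.5% of aged section 3, against 8.92 to 20.3% in the other young sections and 0.669 to 0.962% in the other aged sections. A turned image in that area would exchange the ages of its sections, and this was not tested, so the age values are also given without that area.

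Itih2, which encodes a heavy chain, had the largest fitted log2 difference between the ages among the 5 members fitted. In UMIs of the gene per 1000000 UMIs of the section (CPM), its level in young sections 1 to 4 was 23.2, 14.8, 7.63 and 13.1. In aged sections 1 to 4 it was 4.15, 3.26, 4.32 and 4.80. Every young section lay above every aged section, and the aged section was lower in 4 of 4 capture areas. The means were 14.7 ± 6.45 CPM (SD, n = 4) and 4.13 ± 0.643 CPM (SD, n = 4), and the fitted log2 difference, aged against young, was -1.83 ± 0.36 (SE). Without capture area 3 it was -2.03 ± 0.29. These levels rest on 882 UMIs in young and 102 in aged sections. Fewer cells of a type and less RNA per cell cannot be told apart in such sums.

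Depth touches the share of spots with an Itih2 UMI, which was 20.9% in young and 5.58% in aged sections as counted. At a common depth of 5000 UMIs per spot it was 6.86 ± 3.09% (SD, n = 4) and 2.29 ± 1.12% (SD, n = 4). Shares at this depth, here and below, leave out shallower spots. Such spots were more frequent in some aged sections. Young section 2 kept 726 of 730 spots and aged section 3 kept 195 of 257. Summed marker levels of the 3 classes with the highest mean Itih2 levels, both ages pooled, overlapped between the ages. Theca markers (6 of 6 detected) were at 762 to 1621 CPM in young and 575 to 1235 CPM in aged sections. Granulosa markers (at least 10 of 11 detected) were at 1855 to 2761 CPM in young and 1025 to 5102 CPM in aged sections. Stroma markers (9 of 9 detected) were at 1532 to 1862 CPM in young and 853 to 2267 CPM in aged sections. In young sections alone, oocyte-rich spots came next after granulosa-rich spots in mean Itih2 level. Oocyte markers (10 of 10 detected) were at 548, 176, 35.9 and 231 CPM in young sections 1 to 4. In aged sections 1 to 4 they were at 36.7, 39.8, 470 and 32.0 CPM, higher than in the young section in capture area 3 alone. The part of these classes in the Itih2 difference was not tested.

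Itih5, a heavy chain family member not made as part of the classical serum inhibitor, was more abundant and also lower with age. Its level in young sections 1 to 4 was 177, 128.8, 146 and 121.8 CPM, and in aged sections 1 to 4 it was 98.3, 104.6, 117 and 63.7 CPM. The groups did not overlap, and the gap between the lowest young and the highest aged section was small beside the spread within each age. The means were 143 ± 24.6 and 95.9 ± 22.8 CPM (SD, n = 4 each), with a fitted log2 difference of -0.57 ± 0.21 (SE), or -0.63 ± 0.26 without capture area 3. For Itih2 and Itih5 alike, the groups would overlap if the ages of capture area 3 were exchanged. At 5000 UMIs per spot, 49.3 ± 5.68% of spots in young and 38.5 ± 5.10% in aged sections (SD, n = 4 each) held an Itih5 UMI.

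Across all 14044 genes that passed the filter on low counts, 158 (1.13%) had all aged sections below all young sections. Itih2 and Itih5 were 2 of these, a count that the choice of the members used. The edgeR quasi-likelihood test with Benjamini-Hochberg adjustment called 0 genes (0%) for age, its smallest adjusted p being 0.823, and 392 genes had an unadjusted p under 0.05. DESeq2 called 6.

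Vcan was the member that varied most among aged sections. Young sections 1 to 4 were at 24.6, 30.4, 23.2 and 21.5 CPM, and aged sections 1 to 4 at 61.0, 14.6, 184 and 26.9 CPM. Young sections lay close together, whereas aged sections 1 and 3 were above all of them and aged section 2 was below all of them. The means were 24.9 ± 3.87 and 71.6 ± 77.4 CPM (SD, n = 4 each), and the fitted log2 difference was 1.38 ± 0.60 (SE). It was 0.47 ± 0.40 without aged section 3, 0.40 ± 0.44 without capture area 3 and 0.90 ± 0.65 with capture area as a block. Granulosa markers also differed among aged sections. They were at 5102, 1025, 4470 and 3951 CPM in aged sections 1 to 4, and at 1855 to 2761 CPM in young sections. The part of granulosa content in the Vcan levels was not tested.

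The receptor gene Cd44 overlapped between the ages. It was at 8.11, 8.37, 6.91 and 18.3 CPM in young sections 1 to 4, and at 14.0, 7.78, 8.999 and 15.9 CPM in aged sections 1 to 4. The highest value was in young section 4 and the next highest in the aged section of the same capture area. The fitted log2 difference was 0.18 ± 0.37 (SE), 0.15 ± 0.36 without capture area 3, 0.59 ± 0.32 without young section 4 and -0.02 without aged section 4.

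Tnfaip6, whose product moves heavy chains onto hyaluronan, was low. Its level was 4.59, 1.203, 0.928 and 5.33 CPM in young sections 1 to 4, and 1.38, 0.842, 1.80 and 5.43 CPM in aged sections 1 to 4. Both sections of capture area 4 were high, and the ages overlapped. The fitted log2 difference was -0.31 ± 0.73 (SE), -0.46 ± 0.75 without capture area 3, -1.24 ± 0.73 without aged section 4 and 0.11 without young section 4.

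Has2, the synthase gene, gave 14 UMIs in all, each in a spot of its own. Young sections 1 to 4 held 2, 5, 1 and 2 of them and aged sections 1 to 4 held 0, 3, 0 and 1. It did not pass the filter on low counts, so 5 of the 6 members entered the age fit. A count of 0 allows up to 3 counts, which is 0.139 to 1.08 CPM over the sections, so no difference was detectable at this depth and no fold is given.

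**Figure D1:**
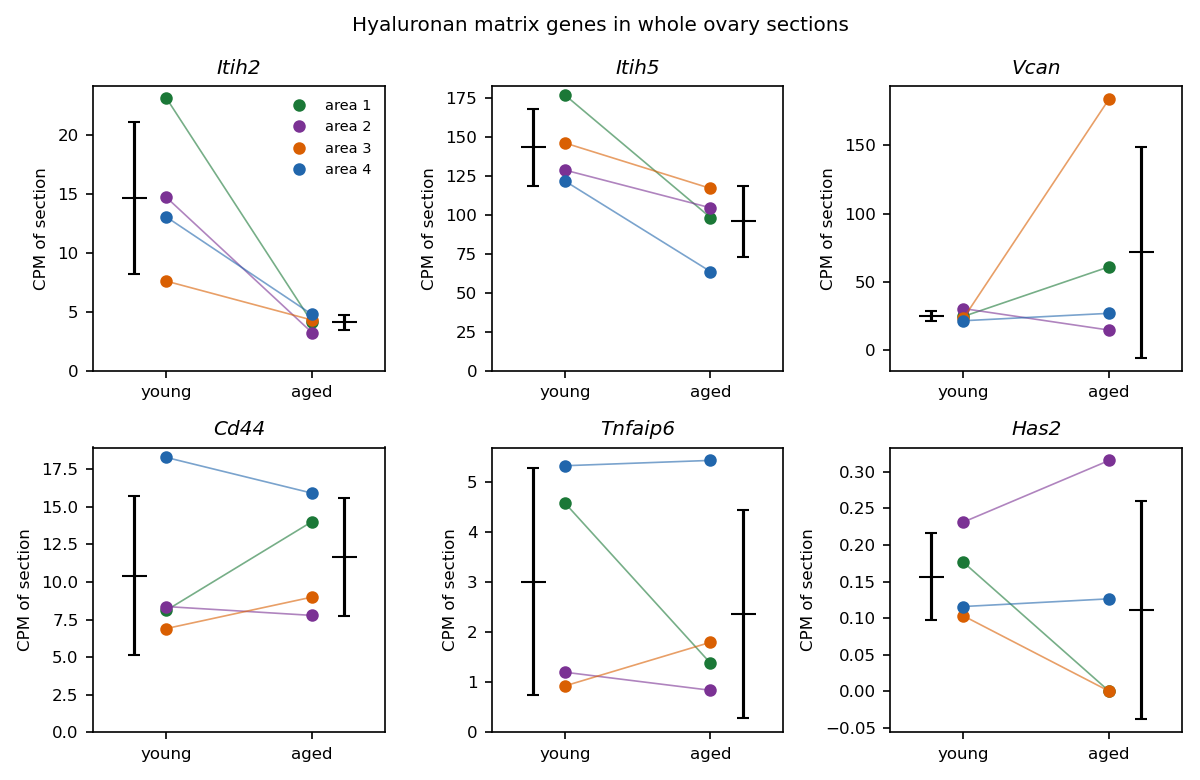
Level of each of the 6 genes in CPM of the section (linear axes), 1 point per section, coloured by capture area, with a line joining the young and aged section of an area and bars for the mean ± SD of each age (n = 4). Itih2 and Itih5 show no overlap between ages, and aged section 3 (area 3) stands high for Vcan at 184 CPM.

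To ask where in the ovary each gene lay, spots rich in the markers of 10 cell types were compared with the remaining spots of the same section. A spot was called rich for a marker list if that list had its highest scaled value there, the spot was in the top 10% of its section for the list, and it held at least 3 marker UMIs. None of the 6 genes is on a marker list. Such a class is a range of a score, not a pure cell type. For granulosa, 183 spots were above a limit at the top 5%, 314 above the limit used and 398 above a limit at the top 20%. Summed marker levels in rich spots and in the rest were 12513 and 1861 CPM for granulosa, 3331 and 976 CPM for theca, 47357 and 17650 CPM for luteal, and 4190 and 1792 CPM for stroma. Itih2, Itih5, Vcan and Cd44 passed the filter in these fits and Has2 and Tnfaip6 did not. Of 40 tests of a member in a class, 12 passed an adjusted p of 0.05, and the same 12 passed without capture area 3. The share of all genes called ranged from 2.39% in oviduct-rich to 40.4% in granulosa-rich spots, and is given for each class below.

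Granulosa cells surround and nourish the oocyte, and the 314 granulosa-rich spots came from all 8 sections. Itih2 and Vcan rose in them and Cd44 fell, which is 3 of the 4 members tested, while 40.4% of all 11366 genes tested there were called. Itih2 was at 25.0, 44.7, 40.4 and 31.6 CPM in the granulosa-rich spots of young sections 1 to 4, against 23.0, 11.7, 4.51 and 11.7 CPM in the rest of each section. In aged sections 1 to 4 it was at 3.81, 16.0, 4.74 and 13.1 CPM in rich spots and 4.21, 2.55, 4.29 and 4.01 CPM in the rest. The rich spots were higher in 7 of 8 sections, all but aged section 1, and by little in young section 1 and aged section 3. The means were 22.4 ± 15.6 and 8.25 ± 6.95 CPM (SD, n = 8 sections), and the log2 ratio was 1.54 ± 0.29 (SE; edgeR quasi-likelihood test with section as a block, adjusted p = 0.00075).

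Vcan was at 42.3, 47.2, 58.2 and 24.7 CPM in the granulosa-rich spots of young sections 1 to 4, against 22.8, 28.7, 19.9 and 21.2 CPM in the rest. In aged sections 1 to 4 the rich spots held 188, 38.1, 109 and 162 CPM and the rest 37.6, 13.3, 190 and 14.1 CPM. Aged section 3 ran the other way, with more Vcan outside the granulosa-rich spots. Only 16 of its spots were granulosa-rich, while granulosa markers over that whole section were at 4470 CPM. Its remaining spots can therefore still hold granulosa cells. The log2 ratio of Vcan was 1.27 ± 0.32 (SE; edgeR, adjusted p = 0.0053), higher in 7 of 8 sections. Cd44 was at 5.44 ± 4.83 CPM against 11.7 ± 4.65 CPM in the rest (SD, n = 8), with a log2 ratio of -1.15 ± 0.32 (edgeR, adjusted p = 0.0098) and lower values in 6 of 8 sections. The Cd44 call rests on 40 UMIs in rich spots. Itih5 did not pass there (0.37 ± 0.15, edgeR adjusted p = 0.070).

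**Figure D2:**
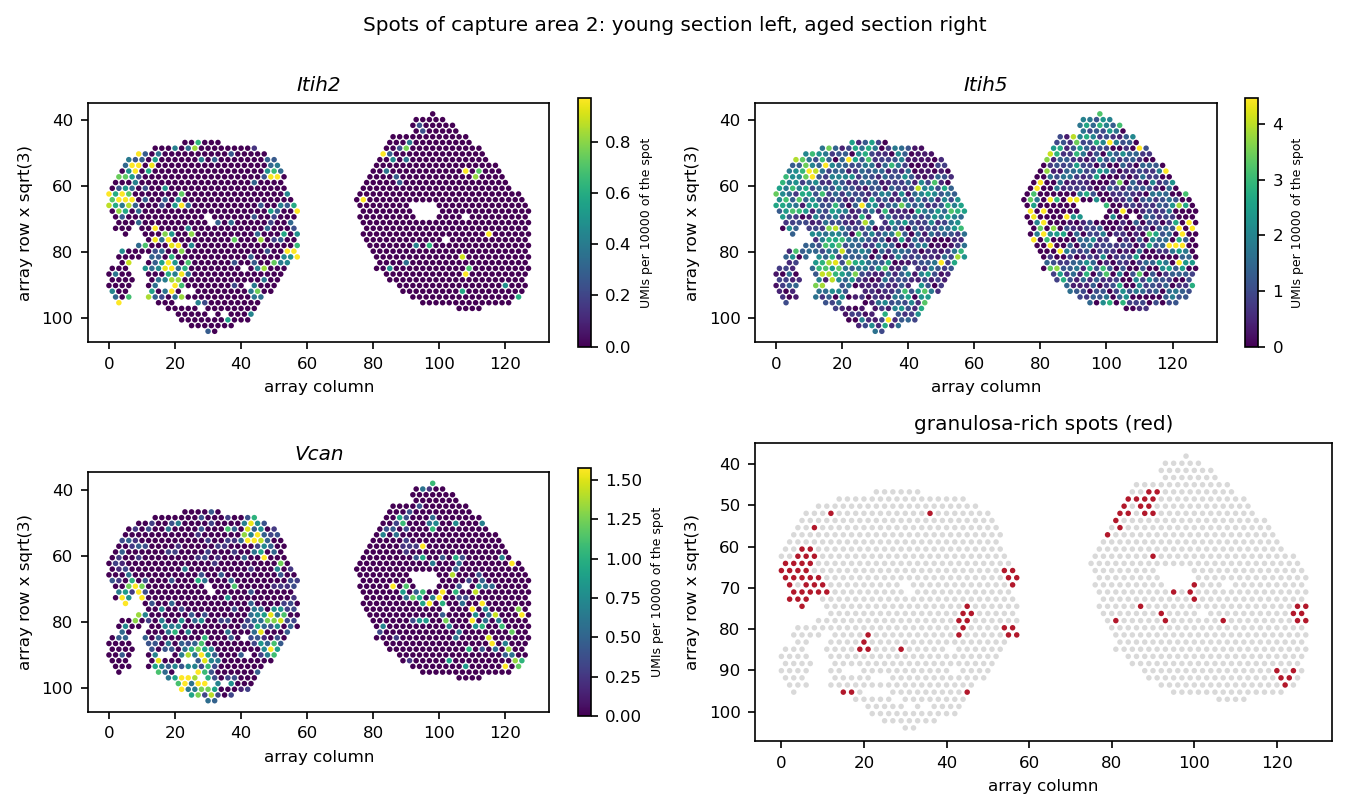
Spots of capture area 2 at their array positions (array column, and array row scaled to keep proportions), coloured by Itih2, Itih5 and Vcan UMIs per 10000 UMIs of the spot, with the highest values sharing the top colour, and with granulosa-rich spots in red; the young section is on the left and the aged section on the right. Itih2 and Vcan are gathered in patches in the young section, Itih5 is spread over most spots, and few spots of the aged section hold Itih2.

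In the 204 oocyte-rich spots (6 sections; 16.1% of genes called), Vcan rose by 0.87 ± 0.22 on the log2 scale (edgeR, adjusted p = 0.010; higher in 5 of 6 sections, not in aged section 3). The call was lost without young section 4 (adjusted p = 0.075). Itih2, Itih5 and Cd44 did not pass. Summed oocyte marker levels were 2294 CPM in rich spots and 115 CPM in the rest, as means over sections. Oocyte content was low in 2 of these sections. Young section 3 held 15 oocyte-rich spots and aged section 2 held 16. Spots with at least 10 UMIs of oocyte markers numbered 4 and 6 there, so many spots of this class held few such UMIs.

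Luteal cells of the corpus luteum make progesterone after ovulation. In the 378 luteal-rich spots of 8 sections (26.8% of genes called), Itih2 and Vcan fell. Itih2 was at 1.76, 4.75, 0.793 and 6.05 CPM in the luteal-rich spots of young sections 1 to 4 and at 27.0, 16.1, 8.65 and 14.0 CPM in the rest. In aged sections 1 to 4 the rich spots were at 0, 4.08, 0 and 0.725 CPM and the rest at 4.77, 3.11, 4.64 and 5.66 CPM. All sections but aged section 2 were lower in luteal-rich spots, and the log2 ratio was -1.77 ± 0.39 (SE; edgeR, adjusted p = 0.0056). Vcan was lower in 8 of 8 sections (20.0 ± 23.0 against 51.4 ± 59.1 CPM, SD, n = 8), with a log2 ratio of -1.31 ± 0.28 (edgeR, adjusted p = 0.0045). Luteal-rich spots were the deeper ones, with a median of 29022.5 UMIs against 16806 in the rest.

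Free RNA can put UMIs into spots whose cells lack a gene. No class here is known to lack Itih2, so the part of free RNA was not measured. The luteal-rich share is given beside the granulosa-rich share as a description. Luteal-rich spots had the lowest mean Itih2 level of the classes, so a lower share there follows from that choice. At 5000 UMIs per spot, 8.65% of granulosa-rich and 1.21% of luteal-rich spots held an Itih2 UMI (means of 8 sections). As counted the shares were 25.3% and 6.20%, at median depths of 21306.5 and 29022.5 UMIs.

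Stroma-rich spots were selected on collagens and other fibroblast genes, and Itih5 rose in them. It was at 271, 161, 193 and 334 CPM in the stroma-rich spots of young sections 1 to 4, against 172, 128, 145 and 117 CPM in the rest. In aged sections 1 and 2, which alone of the aged sections held enough such spots, it was at 179 and 184 CPM against 96.8 and 102 CPM. Rich spots were higher in 6 of 6 sections. The log2 ratio was 0.72 ± 0.12 (SE; edgeR, adjusted p = 0.00019), in a comparison of 112 rich spots in which 6.46% of genes were called. Itih2, Vcan and Cd44 did not pass there.

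Itih5 also rose in smooth muscle-rich spots by 0.47 ± 0.12 (edgeR, adjusted p = 0.0082; higher in 6 of 8 sections; 17.9% of genes called). In spots rich in surface epithelium, the cell layer that covers the ovary, it rose by 0.42 ± 0.11 (edgeR, adjusted p = 0.017; 6 of 7 sections; 14% of genes called). Young section 4 was against the direction in both classes, and aged section 2 also in smooth muscle-rich spots. The first call was lost without young section 2 (adjusted p = 0.0502) and the second without young section 1 (adjusted p = 0.0524). The 2 classes hold 242 and 246 rich spots.

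Vcan fell in 3 further classes. In theca-rich spots, which hold androgen-making cells of the follicle wall, it fell by 1.03 on the log2 scale (SE 0.25; edgeR, adjusted p = 0.013; 5 of 7 sections lower; 8.21% of genes called). Aged sections 2 (19.3 against 14.2 CPM) and 4 (27.7 against 26.9 CPM) went the other way in theca-rich spots. In endothelium-rich spots it fell by 0.81 (SE 0.20; edgeR, adjusted p = 0.0044; 8 of 8 sections; 10.3% of genes called). In macrophage-rich spots it fell by 1.02 (SE 0.24; edgeR, adjusted p = 0.0083; 7 of 8 sections; 6.97% of genes called). Each of these calls was lost without young section 2, with adjusted p of 0.096, 0.082 and 0.070, and the theca call also without young section 4 (0.064). In the 113 oviduct-rich spots (2.39% of genes called), no member passed.

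**Figure D3:**
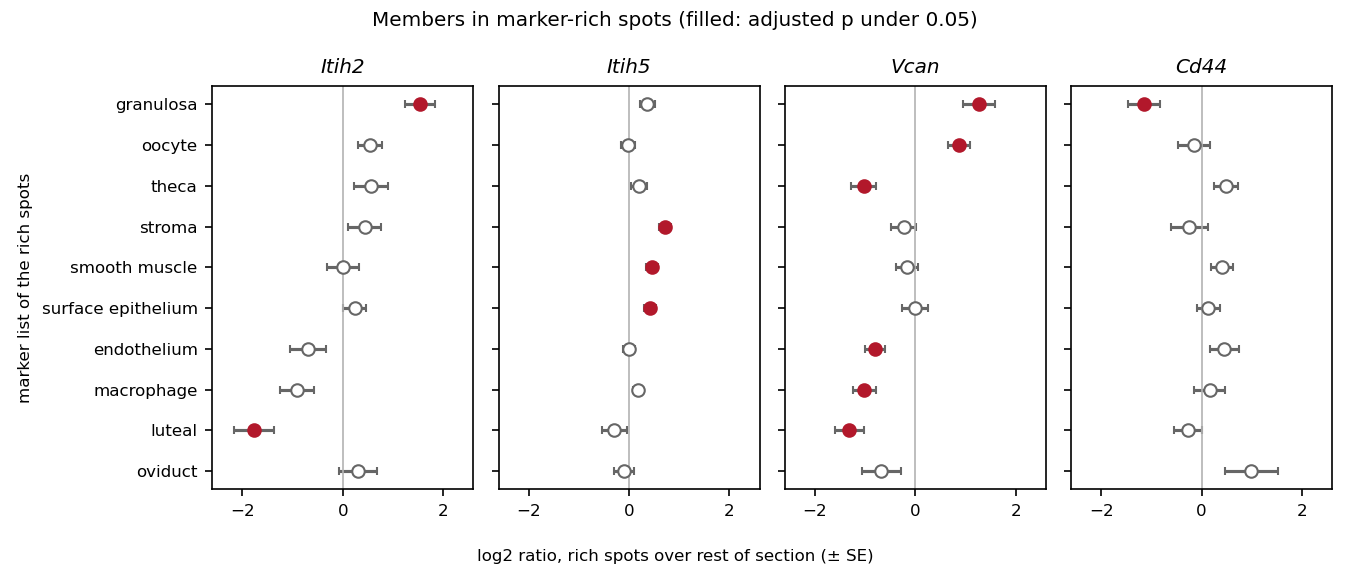
Log2 ratio of rich spots to the rest of the section (points, with bars of 1 SE) for Itih2, Itih5, Vcan and Cd44 in the 10 spot classes; filled points passed an adjusted p of 0.05. Itih2 and Vcan are high in granulosa-rich and low in luteal-rich spots, and Itih5 is highest in stroma-rich spots.

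**Figure D4:**
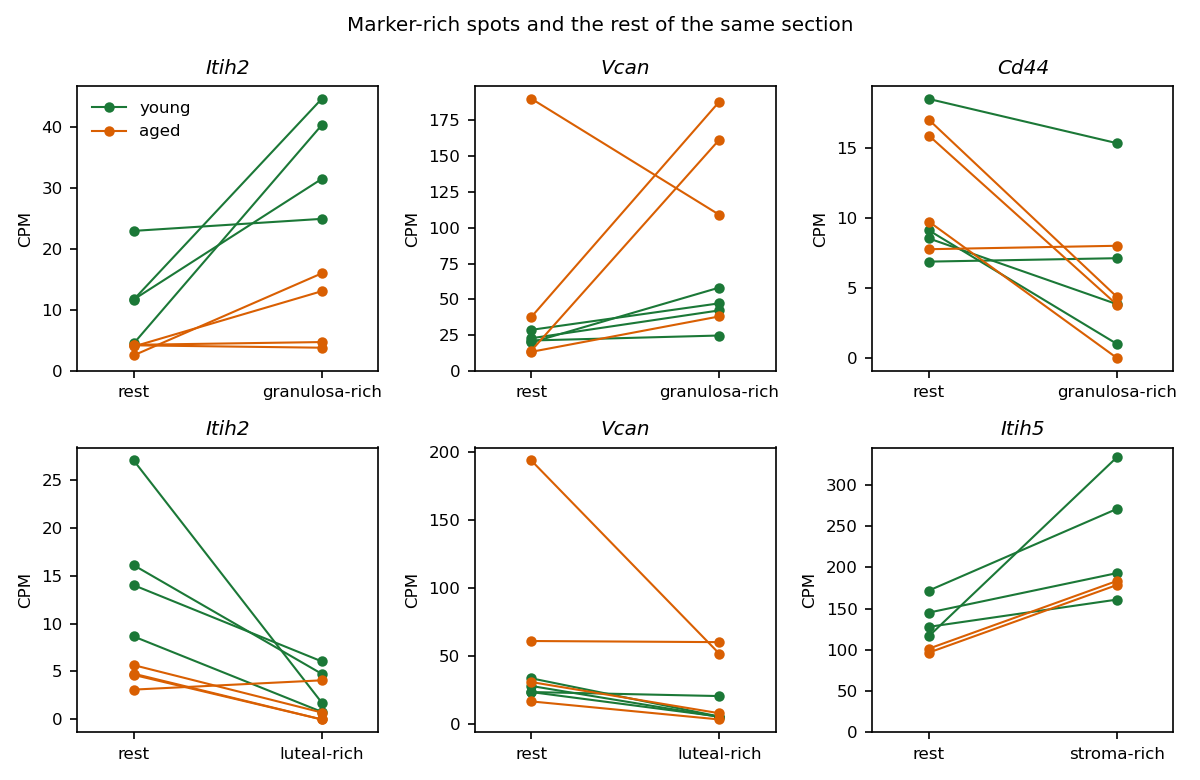
CPM in the rest of a section and in its rich spots, joined by 1 line per section, young sections in green and aged sections in orange, for the gene and class named in each panel. Itih2 reaches 44.7 CPM in granulosa-rich spots of young sections and 16.0 CPM in those of aged sections, and the Vcan line of aged section 3 falls from 190 to 109 CPM where the others rise.

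The classes were also ordered by the mean level of each member over the 4 young sections, which hold all 10 classes. Means over both ages mix unequal numbers of aged sections. Itih2 ran from granulosa-rich (35.4 ± 8.85 CPM, SD, n = 4) over oocyte-rich spots (21.4 ± 13.1 CPM) down to macrophage-rich (6.31 ± 4.97 CPM) and luteal-rich spots (3.34 ± 2.47 CPM). Stroma-rich, theca-rich, oviduct-rich and surface epithelium-rich spots lay together between them, at 17.8 to 19.7 CPM. Itih5 ran from stroma-rich (240 ± 77.8 CPM) over smooth muscle-rich (193 ± 62.7 CPM) down to luteal-rich spots (117 ± 18.8 CPM). Vcan was at 47.6 ± 13.4 CPM in oocyte-rich and 43.1 ± 13.9 CPM in granulosa-rich spots, and lowest in theca-rich (9.50 ± 0.97 CPM) and luteal-rich spots (9.24 ± 7.58 CPM). Cd44 was highest in oviduct-rich spots (25.0 ± 19.9 CPM), where young section 2 alone stood at 53.7 CPM with 39 of the 55 UMIs. The other 5 sections with such spots, both ages together, averaged 12.2 ± 8.22 CPM (SD). Cd44 was lowest in granulosa-rich (6.83 ± 6.21 CPM) and luteal-rich spots (5.68 ± 2.98 CPM). With both ages pooled, 50 neighbouring pairs of classes over 5 genes (Tnfaip6 included, and the spots of no class counted as a level) were compared by an exact two-sided sign-flip permutation test. The smallest p it allows is 0.0078 with 8 shared sections and 0.0625 with 5, so no single pair could pass adjustment over the 50. None passed, which does not show that neighbours are alike, and 1 pair had an unadjusted p under 0.05 (Itih2, macrophage-rich over luteal-rich, exact p = 0.0469).

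Tnfaip6 had its highest mean in luteal-rich spots, at 5.54 ± 6.90 CPM (SD, n = 8). The mean was set by young section 1 (17.6 CPM) and aged section 4 (15.2 CPM), while the other 6 sections lay at 0 to 5.18 CPM. Luteal-rich spots held 64 of its 242 UMIs, and the 112 stroma-rich spots of 6 sections held 0. With the limit at the top 20%, 167 stroma-rich spots of 8 sections held 2 (mean 1.38 CPM), so the 0 does not show absence. Of the 14 spots with a Has2 UMI, 3 were granulosa-rich, 2 theca-rich, 1 luteal-rich, 1 stroma-rich and 1 rich in surface epithelium, and 6 were in no class.

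Whether the age difference depended on the place was tested as an interaction of age and class in the 7 classes with at least 3 sections of each age. None of 28 member tests passed (edgeR, lowest adjusted p = 0.50), and 4 had an unadjusted p under 0.05. Genes called were 0% in granulosa-rich, luteal-rich, endothelium-rich, smooth muscle-rich and macrophage-rich spots, 0.0084% in theca-rich spots and 0.042% in spots rich in surface epithelium. For Itih2 in granulosa-rich spots the interaction was -0.27 ± 0.68 on the log2 scale (edgeR, adjusted p = 0.98). Its age difference was -1.87 ± 0.42 within granulosa-rich spots and -1.78 ± 0.47 in the rest. For Vcan the interaction there was 0.94 ± 0.58 (edgeR, adjusted p = 0.78). In other classes some fitted age differences lay further apart. That of Vcan was -0.86 ± 0.61 in spots rich in surface epithelium and 0.56 ± 0.40 in the rest. That of Cd44 was 1.36 ± 0.57 in luteal-rich spots and 0.05 ± 0.34 in the rest. Others lay close, as for Itih5 in luteal-rich spots (-0.64 ± 0.57, and -0.55 ± 0.20 in the rest). These intervals are wide, so equal age differences are not shown.

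The members differed in how alike adjacent spots were, taken as a measure of patchiness. The correlation of a spot's value with the mean of its adjacent spots, averaged over 8 sections, was 0.469 for Vcan, above 96.5% of 10709 genes. It was 0.257 for Itih5 and 0.235 for Itih2, above 87.4% and 85.6%, and 0.0873 for Tnfaip6 and 0.0662 for Cd44, beside a median of 0.0806 over all those genes. Tnfaip6 and Cd44 lie near that median. Those genes were each detected in at least 5% of spots of every section. Itih2 and Tnfaip6 did not meet this, with as few as 4.1% and 1.2% of spots in a section. Low detection can lower this correlation, so a low value does not show a lack of patches. Among member pairs, Itih2 and Itih5 were the most alike across spots (mean r 0.135, range -0.023 to 0.243 over sections), and the other pairs lay between -0.08 and 0.02.

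The genes most like each member across spots, by mean r over 8 sections, are given as descriptions, since spots share their library and depth. For Vcan these were Tmsb10 (0.336), Nr5a2 (0.331), which is on the granulosa list, and Stmn1 (0.308). For Itih5 they included the stroma marker Col1a2 (0.242) and Rarres2 (0.227). For Itih2 they were Apoa4 (0.209), Cables1 (0.198) and the theca marker Cyp17a1 (0.194). For Cd44 the closest was Tmsb4x (0.112), then Ifitm3 and Tgm2 (0.108 each), and for Tnfaip6 they were Tubb6 (0.0988), Far1 (0.0913) and Gas2 (0.0879), all weak.

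A list of 46 other genes of hyaluronan synthesis, binding, breakdown and the ovulatory response was read from the same fits. For age, 28 passed the filter and 0 were called in either direction, 3 having an unadjusted p under 0.05. The median log2 difference of the 28 was 0.03, beside 0.01 over all genes. In granulosa-rich spots 6 rose and 6 fell of 19 tested, where 40.4% of all genes were called. Hmmr, a hyaluronan receptor gene also tied to cell division, rose by 1.87 ± 0.26 on the log2 scale, and Adamts5, which encodes a versican-cleaving protease, rose by 1.51 ± 0.29. Cemip, whose product takes part in hyaluronan breakdown, fell by 1.94 (SE 0.21) and Rgcc fell by 1.67 (SE 0.19). Both also fell in several other classes, given below. The scavenger receptor gene Stab2 fell by 1.41 (SE 0.34).

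The list was read in the other classes in the same way. The share of all genes called stands in parentheses after each class. In endothelium-rich spots (10.3%) 5 of 18 rose and 0 fell, among them the clearance and lymphatic receptor genes Lyve1 (2.46 ± 0.25), Stab1 (1.24 ± 0.11) and Stab2 (1.01 ± 0.27). In theca-rich spots (8.21%) 3 of 21 rose, including the proteoglycan genes Acan (1.78 ± 0.32) and Bcan (1.57 ± 0.31), and 4 fell, including Edn2 (-2.12 ± 0.47). In luteal-rich spots (26.8%) 2 of 17 rose, Rgcc (1.41 ± 0.18) and Cemip (1.10 ± 0.20), and 2 fell. In spots rich in surface epithelium (14%) 2 of 21 rose, among them Ptx3 (1.57 ± 0.38), whose product crosslinks heavy chains on hyaluronan. There 5 fell, among them Adamts5 (-0.93 ± 0.21) and Rgcc (-0.76 ± 0.12). Oocyte-rich spots (16.1%) had 1 higher, Hmmr (1.47 ± 0.33), and 5 lower of 20, among them Cemip (-1.34 ± 0.22) and Rgcc (-1.03 ± 0.20). Smooth muscle-rich spots (17.9%) had 2 higher, among them Lyve1 (1.34 ± 0.27), and 3 lower of 18. Rgcc (-1.34 ± 0.16) and Cemip (-1.14 ± 0.18) were among the lower genes there. Stroma-rich spots (6.46%) had 0 higher and 2 lower of 18, Rgcc (-1.21 ± 0.14) and Cemip (-1.18 ± 0.17). Macrophage-rich spots (6.97%) had 1 higher, Stab1 (0.87 ± 0.10), and 1 lower of 18. Oviduct-rich spots (2.39%) had 0 higher and 1 lower of 17, Cemip (-1.24 ± 0.23). The synthase gene Has1 and the ovulation gene Ptgs2 gave 14 and 22 UMIs in all sections together, and Hyal4 gave 0.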

How the data were processed

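Gene by spot UMI counts, deposited as raw count tables, were made by the authors with Space Ranger 1.2.1 and mm10, per the submitters' processing notes. Spot positions and tissue flags come from deposited position lists. The labels give the side of each age; sections were split there at the widest gap in spot positions (at least 3.52 spot spacings; k-means placed 11 spots otherwise). Of 4263 spots over tissue, 72 have no count column, and 18 under 500 UMIs were left out of the spot classes.

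Counts were summed per section, or per section and class, and tested with edgeR 4.0.16 (TMM, filterByExpr, quasi-likelihood, Benjamini-Hochberg over all genes), a procedure tested on simulated data. DESeq2 1.42.0 was an alternative. Classes were used in sections with at least 10 rich spots. No doublet caller was run. Sections of 1 number share a capture area, per the labels; their deviations correlated at -0.00116, 0.171, -0.211 and 0.208. The members and gene lists were chosen with earlier results of these data known. Text names the members, up to 5 called pathway genes per comparison by size, and the 3 likest genes of each member, of which a gene is not reported here. Of each ovary 1 section was measured, so p-values reflect the spread between animals and sections together.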

Additional observations from a re-analysis of the deposited data

Results flagged for a closer look

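Of 30 groups of 4 sections checked for a section far from its group, 4 held one, where chance gives about 1 in 20. Cd44 in whole young sections was at 18.3 CPM in young section 4, far above the other 3. Vcan in the endothelium-rich spots of aged sections was at 180.6 CPM in aged section 3, and in the macrophage-rich spots of aged sections it was at 159 CPM in the same section. Vcan in the luteal-rich spots of young sections was at 20.6 CPM in young section 3. Itih5 in oocyte-rich spots went in opposite directions by age. All 4 young sections were above the rest of their section, with a highest level of 193.5 CPM in young section 3. The margin was small in young sections 1 (184.9 against 176.3 CPM) and 2 (131.8 against 128.6 CPM). Aged sections 2 and 3 were below the rest, at 70.5 and 55.1 CPM, which rest on 17 and 10 UMIs. This difference between the ages was not tested, since only 2 aged sections held enough oocyte-rich spots. Young section 3 held 15 such spots and aged section 2 held 16. Spots with at least 10 UMIs of oocyte markers numbered only 4 and 6 in these sections.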

How the results depend on the processing

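With capture area as the replicate block, 0 genes were called for age, and no age value of a member changed sign. DESeq2 called 6 genes for age and every other alternative called 0. Leaving out 1 section moved the age log2 difference to between -2.06 and -1.53 for Itih2 and between -0.69 and -0.42 for Itih5. Of the 12 member calls between rich spots and the rest, 4 remained in aged sections alone, where Itih2 did not pass the filter, and 11 were made in young sections alone. Leaving out 1 section gave 8 to 13 calls, the fewest without young section 2. Itih2 in granulosa-rich and luteal-rich spots and Vcan in granulosa-rich spots were called in every alternative that gave them a value. Cd44 in granulosa-rich spots was lost in young sections alone (adjusted p = 0.096), Itih5 in stroma-rich spots in aged sections alone (0.27) and Vcan in luteal-rich spots in aged sections alone (0.16). None of the 12 called ratios changed sign in its alternatives (195 in all). Ratios that were not called passed in 7 alternatives. Itih5 in granulosa-rich and Cd44 in luteal-rich spots did so in 2 each. Cd44 in smooth muscle-rich, Itih2 in endothelium-rich and Itih2 in macrophage-rich spots did so in 1 each. Of the 28 ratios that were not called, 16 changed sign in 47 of 441 alternatives, in 0 of them past the threshold. Among these were Itih5 in oocyte-rich spots (0.13 in young sections alone), Itih5 in endothelium-rich spots (0.41 in aged sections alone) and Vcan in surface epithelium-rich spots (0.35 in young sections alone). The cause of these changes was not tested.

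Counts of all genes called moved by over 1.5 times as follows. In aged sections alone they were 1940 for granulosa, 90 for luteal, 94 for endothelium, 152 for macrophage, 808 for oocyte, 421 for theca, 134 for stroma, 647 for smooth muscle, 751 for surface epithelium and 431 for oviduct, and in young sections alone 503 for theca, 492 for stroma, 844 for surface epithelium and 16 for oviduct. DESeq2 called 474 for stroma and 720 for endothelium. With spots in several lists the counts were 2494 for stroma and 1349 for oviduct, and with no filter 2885 for oocyte and 1257 for oviduct. Oviduct gave 406 at the top 5%, 17 at the top 20%, 52 without capture area 3 and 9 to 144 with 1 section left out. Single sections left out gave 1018 (young 2) and 1204 (young 4) for oocyte, 617 (young 2) for theca, 468 (young 1) for stroma, 708 (young 1) for endothelium and 464 (young 2) for macrophage. Interaction counts reached 29 for granulosa and 6 for smooth muscle without capture area 3, and 8 or fewer for the other classes in every alternative. Has2, with 14 UMIs, and Tnfaip6, with 242, are limited by depth.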
